A study of Mus musculus with 12 samples.

Results

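The data described here are the RNA levels of 42 genes that copy DNA in S phase, chosen by name from the 43453 genes of a count table of mouse bone marrow-derived macrophages (BMDMs), primary macrophages grown from marrow cells. The list was set by gene function, and the rule for it used no measured value, although earlier results of these data were known when it was drawn up. The cells came from C57BL/6 mice and were differentiated with 50 ng/mL of M-CSF, the macrophage growth factor, for 7 days. The libraries carried 4 headings, with 3 libraries each. Those marked LPS- were unstimulated cells of the tlr4f/f or the tlr4f/f-lysM-cre genotype, and those marked LPS+ were cells of either genotype that had received 1 µg/mL of lipopolysaccharide (LPS), the bacterial ligand of TLR4, for 6 h. All 4 headings shared the floxed tlr4 allele. The lysM-cre mice also carried Cre recombinase driven from the lysM (Lyz2) locus, which is active in macrophages and neutrophils, so that Tlr4 was to be removed only in myeloid cells. Neither the age nor the pooling of the mice was given for these cultures, and nothing said that the 3 libraries of a heading came from separate mice, so p-values measured the spread between libraries, which may be technical.

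Replication begins when CDC6 and CDT1 load the MCM2-7 helicase on origins in G1. CDC45 and the GINS complex then turn the helicase on, and primase, the polymerases alpha, delta and epsilon, the PCNA clamp and its RFC loader copy the strands while RPA covers the bare template. E2F1 and E2F2 are transcription factors that switch on many of these genes when a cell commits to divide. Macrophages grown in M-CSF divide in culture, and LPS is known to stop that division, so that these genes are a usual readout of cycling in such cultures. In bulk RNA, fewer cells in S phase and less RNA per cell cannot be told apart.

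The heading LPS- tlr4f/f-lysM-cre may be exchanged with the heading LPS+ tlr4f/f. Tlr4 was measured at 76.96, 146 and 121 CPM (counts per 1000000 counts of the library, after TMM scaling) in the LPS- tlr4f/f libraries and at 117, 94.7 and 116 CPM in the LPS- tlr4f/f-lysM-cre libraries. It was measured at 31.2, 28.0 and 24.5 CPM under LPS+ tlr4f/f and at 27.4, 24.4 and 24.7 CPM under LPS+ tlr4f/f-lysM-cre, so that the drop in Tlr4 followed the LPS heading and not the cre heading. Lyz2, the gene that carries the Cre insertion, fell with it, at a log2 difference of -10.09 from LPS- tlr4f/f to LPS+ tlr4f/f and of -6.92 from LPS- tlr4f/f-lysM-cre to LPS+ tlr4f/f-lysM-cre. Il1b, a classical LPS-induced cytokine gene, stood between 0.0750 and 6.95 CPM in the 6 libraries headed tlr4f/f and between 1633 and 8224 CPM in the 6 headed tlr4f/f-lysM-cre. As headed, Tlr4 and Lyz2 fell with LPS and Il1b rose with cre. With the pair of headings exchanged, Tlr4 and Lyz2 fell with cre and Il1b rose with LPS. Which reading holds was not tested. Each comparison is named under both readings in the next paragraph. In the values below, the words with LPS, without LPS and genotype follow the headings, unless the exchange is named.

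The exchange renames the comparisons without changing a value. LPS- tlr4f/f-lysM-cre against LPS- tlr4f/f is the genotype comparison in unstimulated cells as headed, and the LPS comparison in tlr4f/f cells if exchanged. LPS+ tlr4f/f-lysM-cre against LPS+ tlr4f/f is the genotype comparison under LPS as headed, and the LPS comparison in tlr4f/f-lysM-cre cells if exchanged. LPS+ tlr4f/f against LPS- tlr4f/f is the LPS comparison in tlr4f/f cells as headed, and the genotype comparison in unstimulated cells if exchanged. LPS+ tlr4f/f-lysM-cre against LPS- tlr4f/f-lysM-cre is the LPS comparison in tlr4f/f-lysM-cre cells as headed, and the genotype comparison under LPS if exchanged. The difference between the 2 LPS effects, the interaction, has the same value in both readings.

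The libraries held between 33577440 and 56445989 counts over genes, with a median of 45331247. The macrophage markers stood at a summed 4453 to 29585 CPM in all 12 libraries. Lyz2 was part of this sum, at 5953 to 23331 CPM under the LPS- headings and 10.4 to 75.3 CPM under the LPS+ headings. The range of the sum thus partly follows Lyz2. The libraries of the LPS- headings varied more than those of the LPS+ headings. The median coefficient of variation over the 42 genes was 22.8% for LPS- tlr4f/f and 37.1% for LPS- tlr4f/f-lysM-cre, against 5.20% for LPS+ tlr4f/f and 6.71% for LPS+ tlr4f/f-lysM-cre. Replicate 3 was the lowest library for 37 of the 42 genes under LPS- tlr4f/f and for 32 of the 42 under LPS- tlr4f/f-lysM-cre. Markers of fibroblasts and stroma differed among the same libraries, at a summed 692, 63.3 and 10.96 CPM in LPS- tlr4f/f and 1011, 191 and 1550 CPM in LPS- tlr4f/f-lysM-cre, against 23.0 to 27.8 CPM in LPS+ tlr4f/f and 47.5 to 60.5 CPM in LPS+ tlr4f/f-lysM-cre. All 8 of these markers were above 0 under each heading, and Col1a1 alone reached 608 CPM in replicate 3 of LPS- tlr4f/f-lysM-cre. Neutrophil markers reached a summed 192 CPM in that library and 0.637 to 27.9 CPM in the others. Lymphoid, erythroid and mast cell markers summed to at most 4.32 CPM in any library. Dendritic cell markers summed to 35.6 to 263 CPM under the LPS- headings and 573 to 713 CPM under the LPS+ headings. Nearly all of this was Itgax, at 35.3 to 260 CPM and 572 to 710 CPM. The other dendritic cell markers reached at most 5.47 CPM each (Xcr1 in replicate 3 of LPS- tlr4f/f-lysM-cre). Stem and progenitor markers summed to 7.30 to 51.5 CPM. The part of these cells in the results below was not tested.

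The promoters of these genes are known for E2F sites, so the sequence before the start of 5 of them is shown, taken from RefSeq (GRCm38.p6, the assembly of mm10, the build of the files) on the strand of the gene. The 4 words TTTCCCGC, TTTGGCGC, TTTCGCGC and TTTGCCGC were searched on both strands in windows from 250 bases before to 50 after the annotated start, and overlapping matches were kept. Each line gives the 200 bases before the annotated start of the window, with matches in capitals. GENCODE M21 places the start of Cdc6 at 98907801 and that of Gins3 at 95633453. By these positions the Cdc6 stretch and the marked word of Gins3 lie inside the genes. Mcm6 and Mcm5 are helicase subunits and hold an overlapping pair of words on opposite strands, Cdc6 and Gins3 hold a word each, and Tyms, shown as 1 of the 21 members whose windows hold no word, passed in neither comparison of the cre heading below.
Mcm6 (chr1:128359706-128359905, minus strand): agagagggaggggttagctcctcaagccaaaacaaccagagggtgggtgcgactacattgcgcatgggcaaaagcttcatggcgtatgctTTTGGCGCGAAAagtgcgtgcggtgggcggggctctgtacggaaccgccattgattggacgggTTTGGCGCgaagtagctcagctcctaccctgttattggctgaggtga
Mcm5 (chr8:75109309-75109508, plus strand): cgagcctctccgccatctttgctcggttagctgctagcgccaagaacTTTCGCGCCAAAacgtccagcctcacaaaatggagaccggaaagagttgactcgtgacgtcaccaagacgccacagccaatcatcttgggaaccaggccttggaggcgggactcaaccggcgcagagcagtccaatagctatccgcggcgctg
Cdc6 (chr11:98907951-98908150, plus strand): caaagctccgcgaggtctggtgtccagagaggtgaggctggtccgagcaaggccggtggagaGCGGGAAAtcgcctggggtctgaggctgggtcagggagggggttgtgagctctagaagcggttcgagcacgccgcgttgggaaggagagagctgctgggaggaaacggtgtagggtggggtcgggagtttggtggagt
Gins3 (chr8:95633359-95633558, plus strand): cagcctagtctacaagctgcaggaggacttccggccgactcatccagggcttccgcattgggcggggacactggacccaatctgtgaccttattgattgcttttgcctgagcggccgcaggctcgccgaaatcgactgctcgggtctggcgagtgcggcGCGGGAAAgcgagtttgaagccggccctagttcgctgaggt
Tyms (chr5:30073626-30073825, minus strand): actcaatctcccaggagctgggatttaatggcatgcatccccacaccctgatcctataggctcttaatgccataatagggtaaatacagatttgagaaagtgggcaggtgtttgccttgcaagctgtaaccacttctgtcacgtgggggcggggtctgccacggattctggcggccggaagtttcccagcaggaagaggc

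A window was found for 35 of the 42 genes, and the others were Mcm4, Gins1, Gins2, Gins4, Rfc2, Prim2 and Pole. An E2F word stood in a window of 14 of the 35 (40%), against 704 of 27025 genes of the promoter table (2.61%). By the gene positions of GENCODE M21, the windows of Cdc6, Dut, E2f1 and Mcm7 lay wholly inside those genes. The sequence before the GENCODE start of these genes was thus not searched. The only words of Lig1 and Uhrf1 also came from windows wholly inside the gene, and their other windows held none. Dut and E2f1 are counted among the members without a word. The word CCAAT, which does not overlap the E2F words and was also searched on both strands, stood in 21 of the 35 (60%) against 41.1% of all genes. The genes with an E2F word had a median log2 difference of -1.64 in LPS+ tlr4f/f-lysM-cre against LPS+ tlr4f/f (n = 14), and those with a window and no word had -1.24 (n = 21). The values of members with and without a word overlapped. Mcm2 and Rrm2 hold none and are among the largest falls below, while Rfc3 holds 2 and had a positive value without LPS. Both medians describe the genes without a test, and a match is not shown to be a bound site. Only exact matches to the listed words were counted, and other forms of the E2F site were not searched. A window without a word is thus not shown to lack an E2F site. Whether the falls follow E2F sites was not tested.

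All 42 genes passed the filter on low counts in every comparison. Tests were edgeR quasi-likelihood F tests with Benjamini-Hochberg adjustment over all genes tested, and a gene passed at an adjusted p below 0.05. A differentially expressed gene (DEG) also had to change more than 2-fold with its adjusted p under 0.01. In the libraries headed LPS+, all 42 genes had a lower value under tlr4f/f-lysM-cre than under tlr4f/f, 41 passed and 33 were DEGs, with a median log2 difference of -1.32. Over all 14551 genes tested, 31.0% passed as lower, 10.9% were DEGs in that direction and the median was -0.02. The libraries did not overlap for 41 of the 42 genes, against 34.9% of all genes. In the libraries headed LPS-, 41 of the 42 had a lower value under tlr4f/f-lysM-cre, 34 passed as lower and 21 were DEGs, with a median log2 difference of -1.96. There 19.4% of the 14649 genes tested passed as lower, 7.81% were DEGs in that direction and the median was -0.08. The libraries did not overlap for 37 of the 42 genes, against 29.1% of all genes. As headed, these were the genotype comparisons with and without LPS. With the headings exchanged, they were the LPS comparisons, the first for tlr4f/f-lysM-cre cells and the second for tlr4f/f cells.

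**Figure D1:**
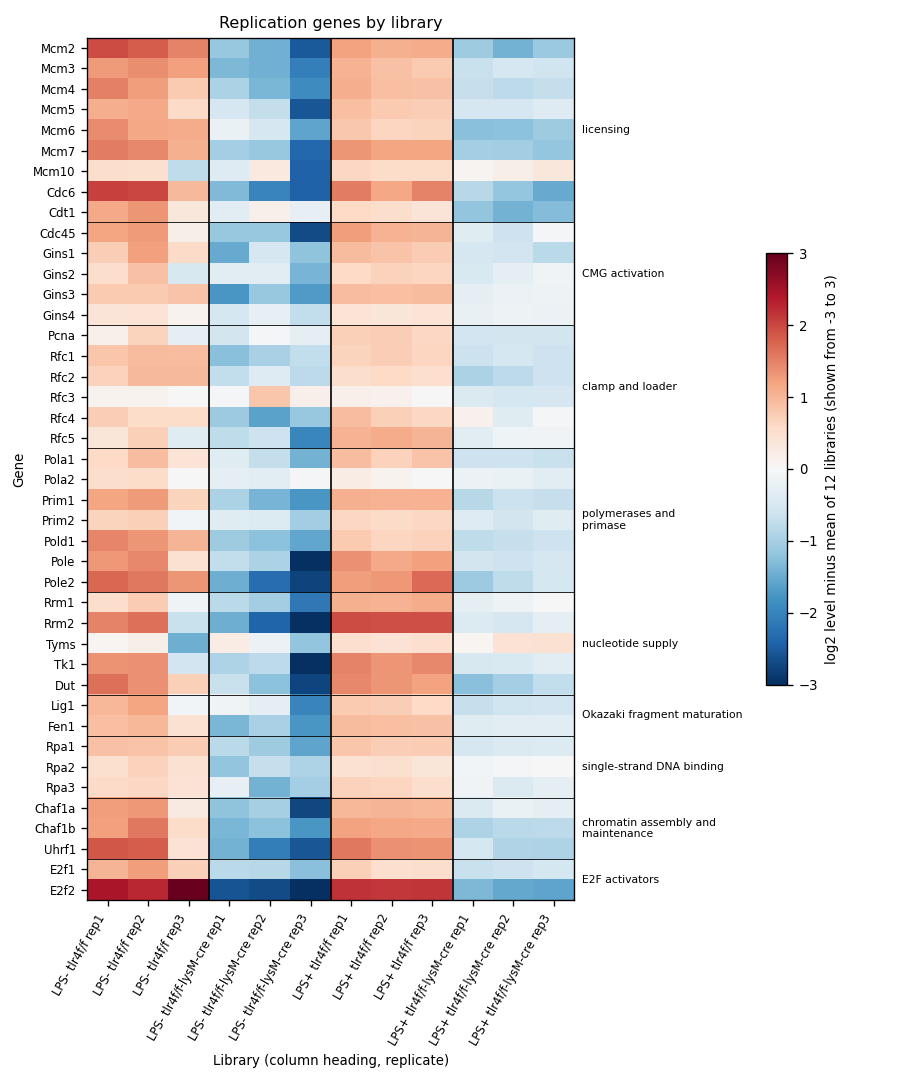
The heat map shows the log2 level of each of the 42 genes (rows, grouped by role) in each of the 12 libraries (columns) minus the gene's mean over the libraries, with red above and blue below that mean. The 6 libraries headed tlr4f/f are mostly red and the 6 headed tlr4f/f-lysM-cre mostly blue, with Tyms and Rfc3 as visible exceptions.

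For 33 of the 42 genes, all 6 libraries headed tlr4f/f lay above all 6 headed tlr4f/f-lysM-cre, against 14.9% of all 15792 genes tested over the 12 libraries. The genes whose libraries overlapped were Mcm10, Gins2, Pcna, Rfc3, Rfc5, Rrm1, Rrm2, Tyms and Tk1. The mean log2 deviation over the 42 genes was 1.03, 1.10 and 0.451 in the LPS- tlr4f/f libraries and 0.959, 0.877 and 0.873 in the LPS+ tlr4f/f libraries. It was -0.878, -0.943 and -1.80 in LPS- tlr4f/f-lysM-cre and -0.576, -0.575 and -0.514 in LPS+ tlr4f/f-lysM-cre. The tlr4f/f headings thus differed from each other by less than the spread of the LPS- tlr4f/f libraries, while all 3 LPS- tlr4f/f-lysM-cre libraries lay below the 3 of LPS+ tlr4f/f-lysM-cre.

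**Figure D2:**
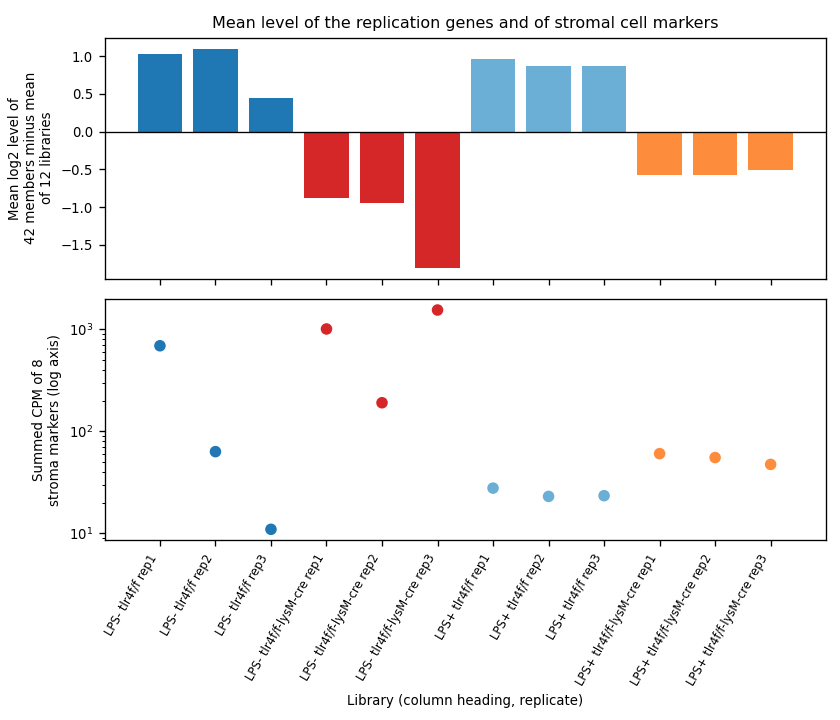
The upper panel shows the mean log2 level of the 42 genes in each library minus the mean of the 12 libraries as bars from 0, and the lower panel shows the summed CPM of 8 stromal cell markers on a log axis. The 6 tlr4f/f libraries lie between 0.451 and 1.10 and the 6 tlr4f/f-lysM-cre libraries between -1.80 and -0.514, while the stromal sum ranges from 10.96 to 692 CPM within LPS- tlr4f/f alone.

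The helicase and its loaders fell with the cre heading in both comparisons. Mcm2, a subunit of the MCM2-7 helicase, was measured at 94.6, 85.8 and 67.6 CPM in LPS- tlr4f/f and at 11.1, 8.97 and 4.20 CPM in LPS- tlr4f/f-lysM-cre. It was measured at 56.2, 50.9 and 52.5 CPM in LPS+ tlr4f/f and at 11.6, 9.05 and 11.3 CPM in LPS+ tlr4f/f-lysM-cre. No library headed tlr4f/f-lysM-cre came near those headed tlr4f/f, and Mcm2 was 10.3-fold lower without LPS (log2 -3.37 ± 0.38 SE, adjusted p = 0.00158, edgeR) and 4.95-fold lower with LPS (log2 -2.31 ± 0.09 SE, adjusted p = 3.75e-10). Cdc6, which loads the helicase with CDT1, stood at 19.5, 18.7 and 9.20 CPM in LPS- tlr4f/f, 1.85, 1.15 and 0.840 CPM in LPS- tlr4f/f-lysM-cre, 13.6, 10.5 and 13.2 CPM in LPS+ tlr4f/f and 2.62, 2.06 and 1.61 CPM in LPS+ tlr4f/f-lysM-cre. Its falls, 12.4-fold and 5.90-fold, were the largest among the 9 licensing genes. Of those 9, 8 passed as lower without LPS and 9 with LPS, where 19.4% and 31.0% of all genes did. Mcm10, a factor that helps to start the helicase, was the exception without LPS (log2 -0.68 ± 0.67 SE, adjusted p = 0.456) and had the smallest fall of the 9 with LPS (log2 -0.36 ± 0.08 SE, adjusted p = 0.00163).

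The order of the MCM2-7 subunits shifted between headings. Per kilobase of transcript, the 6 subunits spanned 20.1 (Mcm4) to 50.9 CPM (Mcm6) in LPS- tlr4f/f and 15.8 (Mcm2) to 36.2 CPM (Mcm7) in LPS+ tlr4f/f, a ratio of 2.53 and 2.29. Under the tlr4f/f-lysM-cre headings they spanned 2.40 (Mcm2) to 13.8 CPM (Mcm6) without LPS and 3.16 (Mcm2) to 12.9 CPM (Mcm5) with LPS, a ratio of 5.74 and 4.10. Mcm2 was thus the lowest subunit per length under 3 of the 4 headings, and the subunits of one complex did not fall by the same factor. The ratios describe group means without a test.

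Between the tlr4f/f-lysM-cre headings, 7 of the 42 genes had lower values with LPS, and Cdt1 had the largest such difference. It stood at 107, 120 and 61.0 CPM in LPS- tlr4f/f and 72.9, 69.0 and 63.5 CPM in LPS+ tlr4f/f. Under tlr4f/f-lysM-cre it stood at 39.0, 53.4 and 40.7 CPM without LPS and 21.3, 18.1 and 19.4 CPM with LPS, where 35 members had higher values with LPS. It fell by 1.16 on the log2 scale (SE 0.14, adjusted p = 0.00344). It was the only DEG of the 42 genes in that comparison, a share below the 3.66% of all genes that were DEGs in that direction. The number of member DEGs there was 0 with the replicate block and without any 1 library of LPS+ tlr4f/f-lysM-cre, and 6 with DESeq2, while Cdt1 kept an adjusted p of at most 0.0325 on leaving out a library. Under the LPS- headings, its fall from tlr4f/f to tlr4f/f-lysM-cre was log2 -1.12 (adjusted p = 0.0213, edgeR). That fall did not pass on leaving out any 1 of 4 libraries (adjusted p up to 0.0798).

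The helicase activators followed the same direction. All 5 genes of the CDC45 and GINS group had lower values under tlr4f/f-lysM-cre in both comparisons. Of them, 5 passed with LPS and 4 without LPS, where 31.0% and 19.4% of all genes passed as lower. Gins3 was measured at 9.30, 9.29 and 9.71 CPM in LPS- tlr4f/f and 1.56, 2.40 and 1.62 CPM in LPS- tlr4f/f-lysM-cre, a 5.11-fold fall (adjusted p = 0.00144, edgeR). With LPS it was measured at 10.1, 10.1 and 10.5 CPM under tlr4f/f and 4.37, 4.74 and 4.84 CPM under tlr4f/f-lysM-cre, a 2.18-fold fall (adjusted p = 1.72e-06). The tlr4f/f libraries thus held nearly the same level with both LPS headings, and the tlr4f/f-lysM-cre libraries stood at 2 separate lower levels. Gins1 fell 3.78-fold without and 2.78-fold with LPS. Gins2, whose fall without LPS did not pass (log2 -1.04 ± 0.43 SE, adjusted p = 0.102, edgeR), shares 70.7% of its annotated exon bases with Gse1 on either strand and is uncertain. The counted transcript of Gins2 has 1038 bases against 3900 annotated exon bases, and its own overlap was not measured. Per kilobase, Gins3 was the lowest and Gins4 the highest of the 4 GINS genes under every heading.

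**Figure D3:**
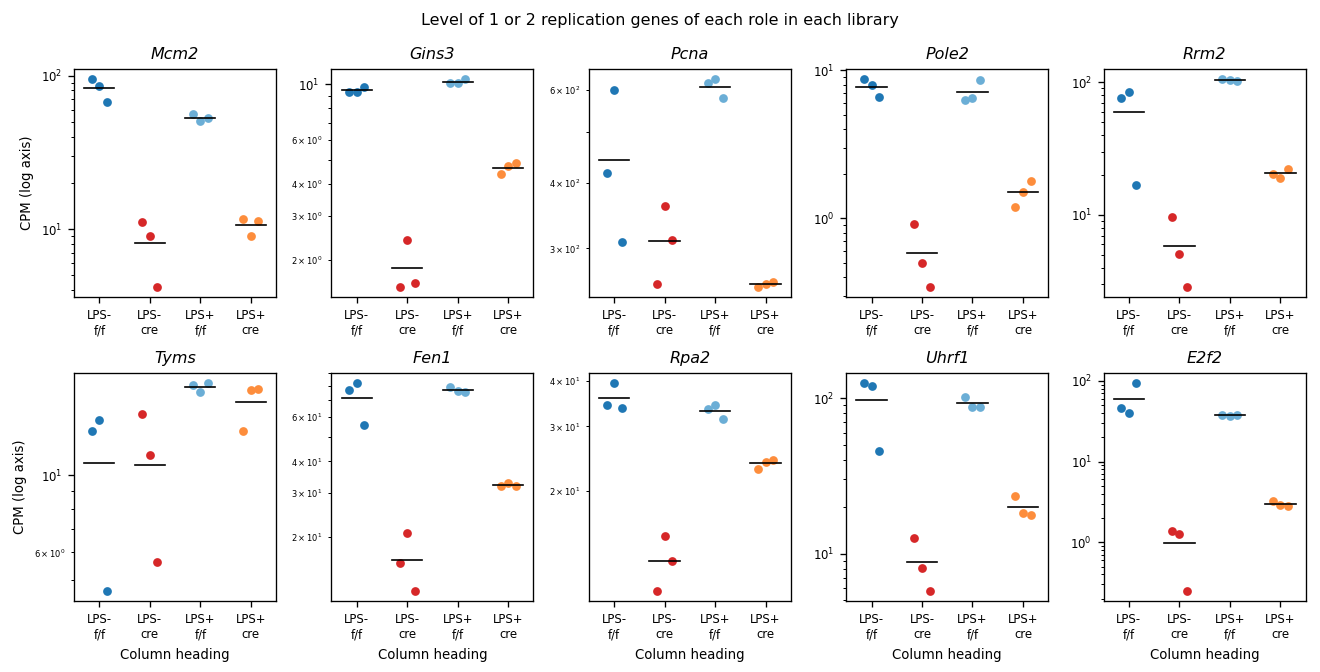
Each panel shows the CPM of a gene on a log axis in the 3 libraries of each of the 4 headings, with a horizontal line at the mean. In 7 of the 10 panels all points headed cre lie below all points headed f/f, whereas Pcna, Rrm2 and Tyms overlap.

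The clamp and its loader had a median log2 difference of -1.43 without LPS and -1.24 with LPS. Pcna, the sliding clamp, had the highest CPM of the members, at 417, 601 and 309 CPM in LPS- tlr4f/f, 256, 362 and 311 CPM in LPS- tlr4f/f-lysM-cre, 618, 630 and 580 CPM in LPS+ tlr4f/f and 253, 257 and 259 CPM in LPS+ tlr4f/f-lysM-cre. The LPS+ libraries were separate and differed 2.36-fold (adjusted p = 8.91e-10, edgeR), while the LPS- libraries overlapped and the difference did not pass (log2 -0.53 ± 0.28 SE, adjusted p = 0.188). Rfc3, a small subunit of the clamp loader, was the only member with a positive value without LPS (log2 0.27 ± 0.24 SE, adjusted p = 0.411). It stood at 14.7, 26.7 and 16.8 CPM in LPS- tlr4f/f-lysM-cre and 11.2, 10.5 and 10.7 CPM in LPS+ tlr4f/f-lysM-cre, so that replicate 2 of the first stood above the rest. Rfc2 and Rfc4, further loader subunits, fell 2.86-fold and 3.71-fold without LPS and 2.48-fold and 1.78-fold with LPS. Rfc2 shares 19.1% of its annotated exon bases with Lat2 and Rfc4 shares 13.4% with Eif4a2, on either strand. Of the 6 clamp and loader genes, 4 passed as lower without LPS and 6 with LPS, where 19.4% and 31.0% of all genes did.

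Of the 7 polymerase and primase genes, 6 passed as lower without LPS and 7 with LPS, where 19.4% and 31.0% of all genes did. Pole2, the second subunit of polymerase epsilon, which copies the leading strand, was measured at 8.70, 7.94 and 6.60 CPM in LPS- tlr4f/f and 0.913, 0.498 and 0.342 CPM in LPS- tlr4f/f-lysM-cre. With LPS it was measured at 6.29, 6.52 and 8.54 CPM under tlr4f/f and 1.20, 1.51 and 1.79 CPM under tlr4f/f-lysM-cre. Its falls were 13.2-fold (log2 -3.72 ± 0.44 SE, adjusted p = 0.00175, edgeR) and 4.71-fold (log2 -2.24 ± 0.19 SE, adjusted p = 5.7e-07), the largest of the group. Pole2 shares 14.4% of its annotated exon bases with Gm49384 on either strand. Pola1, the catalytic subunit of polymerase alpha, fell 2.73-fold without and 2.76-fold with LPS. Pola2, its partner subunit, moved least in the group, by log2 -0.58 ± 0.21 SE without LPS (adjusted p = 0.0657) and -0.34 ± 0.08 SE with LPS (adjusted p = 0.00317).

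The nucleotide enzymes held both a large and the smallest change. Rrm2, the S-phase subunit of ribonucleotide reductase, was measured at 76.0, 85.1 and 16.9 CPM in LPS- tlr4f/f and 9.72, 5.05 and 2.86 CPM in LPS- tlr4f/f-lysM-cre. With LPS it was measured at 105, 103 and 103 CPM under tlr4f/f and 20.4, 19.1 and 22.2 CPM under tlr4f/f-lysM-cre. Replicate 3 of LPS- tlr4f/f thus lay below the LPS+ tlr4f/f-lysM-cre libraries, although the libraries of each comparison were separate. Rrm2 was 10.2-fold lower without LPS (log2 -3.35 ± 0.74 SE, adjusted p = 0.0146, edgeR; 0.0561 without replicate 2 of LPS- tlr4f/f-lysM-cre) and 5.004-fold lower with LPS (log2 -2.32 ± 0.06 SE, adjusted p = 1.6e-11). Per kilobase, Rrm2 and its partner Rrm1 stood close under the tlr4f/f headings, at a ratio of 1.04 and 1.17, and Rrm1 stood above Rrm2 under the tlr4f/f-lysM-cre headings, at a ratio of 3.05 and 1.85.

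Tyms, thymidylate synthase, was measured at 13.4, 14.5 and 4.65 CPM in LPS- tlr4f/f, 15.03, 11.4 and 5.63 CPM in LPS- tlr4f/f-lysM-cre, 18.2, 17.4 and 18.4 CPM in LPS+ tlr4f/f and 13.4, 17.5 and 17.7 CPM in LPS+ tlr4f/f-lysM-cre. The libraries overlapped, and it passed neither without LPS (log2 -0.03 ± 0.52 SE, adjusted p = 0.965, edgeR) nor with LPS (log2 -0.14 ± 0.11 SE, adjusted p = 0.271). A pseudogene of Tyms in the table could take part of its reads, so the value is uncertain. The Tyms counts are those of a RefSeq record marked as non-coding, of 3808 bases. The second transcript of Tyms held 96.9% of that record's total. Tk1, the salvage thymidine kinase, stood at 47.5, 48.6 and 12.5 CPM in LPS- tlr4f/f and 9.82, 10.7 and 1.74 CPM in LPS- tlr4f/f-lysM-cre, with replicate 3 low under both headings, and the difference did not pass (log2 -2.30 ± 0.78 SE, adjusted p = 0.0605). With LPS it fell 3.55-fold (adjusted p = 4e-10).

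The Okazaki fragment genes had a median log2 difference of -1.28 with LPS, and the RPA genes had -0.87, the smallest of the 9 roles. Fen1, which trims the flaps between fragments, stood at 76.7, 81.9 and 55.7 CPM in LPS- tlr4f/f, 15.8, 20.7 and 12.2 CPM in LPS- tlr4f/f-lysM-cre, 79.0, 76.4 and 75.3 CPM in LPS+ tlr4f/f and 31.9, 32.8 and 32.0 CPM in LPS+ tlr4f/f-lysM-cre. The falls were 4.44-fold without and 2.37-fold with LPS. Lig1, the ligase that seals fragments, passed with LPS (log2 -1.32 ± 0.06 SE, adjusted p = 2.97e-09, edgeR), and without LPS its difference had a wider error and did not pass (log2 -1.40 ± 0.54 SE, adjusted p = 0.0879). Rpa2, a subunit of the RPA complex that covers unwound strands, stood at 34.2, 39.4 and 33.7 CPM in LPS- tlr4f/f, 10.7, 15.05 and 12.9 CPM in LPS- tlr4f/f-lysM-cre, 33.5, 34.3 and 31.3 CPM in LPS+ tlr4f/f and 23.0, 23.96 and 24.3 CPM in LPS+ tlr4f/f-lysM-cre. It fell 2.80-fold without and 1.38-fold with LPS. All 3 RPA genes passed in both comparisons, where 19.4% of all genes passed as lower without LPS and 31.0% with LPS. Rpa1, the large subunit, fell 3.88-fold and 2.32-fold.

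Chromatin assembly genes and the E2F activators held some of the largest falls. Uhrf1, which recruits the maintenance DNA methyltransferase to the new strand, stood at 125, 121 and 46.0 CPM in LPS- tlr4f/f and 12.7, 8.07 and 5.75 CPM in LPS- tlr4f/f-lysM-cre, an 11.1-fold fall (adjusted p = 0.00337, edgeR). With LPS it stood at 102, 87.8 and 87.5 CPM under tlr4f/f and 23.6, 18.3 and 17.8 CPM under tlr4f/f-lysM-cre, a 4.62-fold fall (adjusted p = 3.3e-07). Chaf1a, of the complex that deposits histones behind the fork, fell 5.70-fold and 2.46-fold, and 33.6% of its annotated exon bases are shared with Ubxn6 on either strand. The counted transcript of Chaf1a has 3308 bases against 5535 annotated exon bases, and its own overlap was not measured. E2f1 stood at 74.2, 86.8 and 60.3 CPM in LPS- tlr4f/f, 20.8, 20.7 and 15.3 CPM in LPS- tlr4f/f-lysM-cre, 59.8, 51.9 and 53.2 CPM in LPS+ tlr4f/f and 22.9, 23.7 and 25.5 CPM in LPS+ tlr4f/f-lysM-cre, so that it fell 3.92-fold and 2.27-fold.

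E2f2 had the largest fall of the 42 genes in both comparisons. It was measured at 46.1, 40.5 and 94.0 CPM in LPS- tlr4f/f and at 1.37, 1.28 and 0.249 CPM in LPS- tlr4f/f-lysM-cre, a 62.4-fold fall (log2 -5.96 ± 0.71 SE, adjusted p = 0.0019, edgeR). With LPS it was measured at 38.0, 36.7 and 37.5 CPM under tlr4f/f and at 3.27, 2.88 and 2.79 CPM under tlr4f/f-lysM-cre, a 12.5-fold fall (log2 -3.64 ± 0.09 SE, adjusted p = 6.33e-12). Replicate 3 of LPS- tlr4f/f, the lowest library for most members, was the highest for E2f2.

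**Figure D4:**
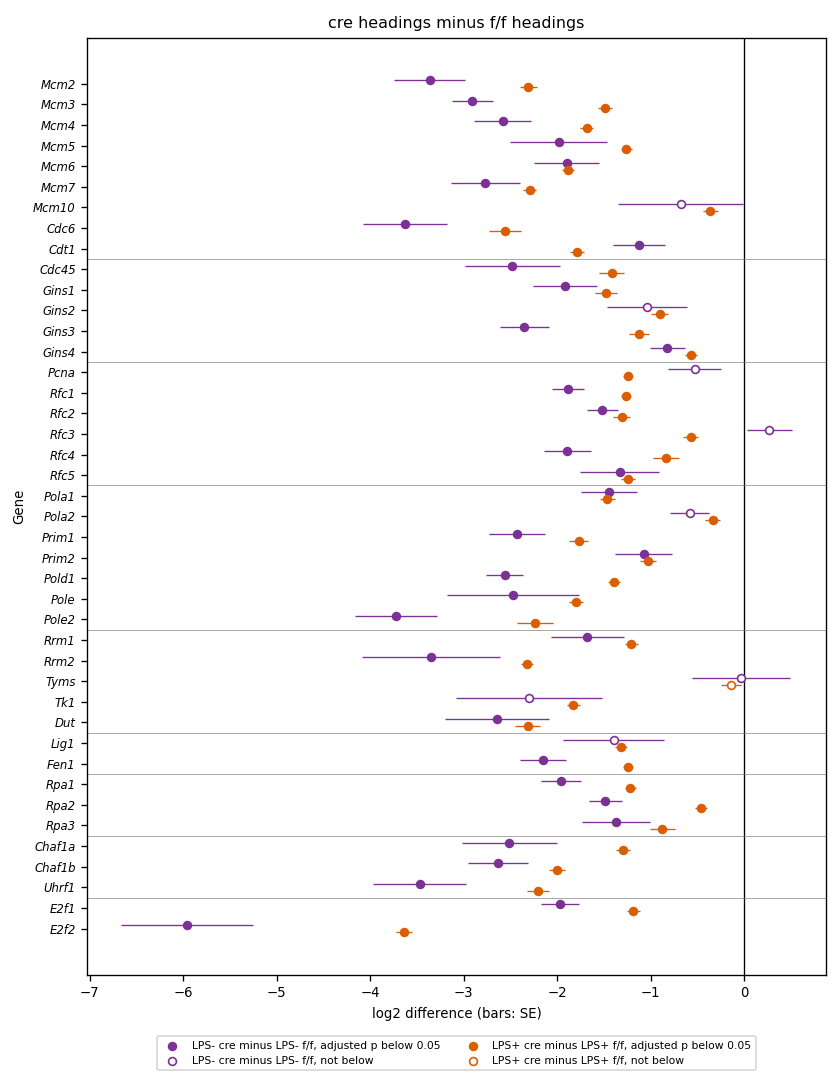
The plot gives the log2 difference of each of the 42 genes, tlr4f/f-lysM-cre minus tlr4f/f headings, without LPS (purple) and with LPS (orange), with SE bars. Filled points passed at an adjusted p below 0.05. All points but that of Rfc3 without LPS lie below 0, down to -5.96 for E2f2.

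The 2 comparisons share no library. Across the 42 genes their log2 differences had a Pearson r of 0.88 and a Spearman rho of 0.81, which describe genes measured in the same libraries and are no test. The difference was more negative without LPS for 37 of the 42 genes.

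LPS+ tlr4f/f against LPS- tlr4f/f, the LPS comparison in tlr4f/f cells as headed and the genotype comparison without LPS if exchanged, gave 0 of 42 genes at an adjusted p below 0.05 with edgeR. An unadjusted p below 0.05 was found for 9 of the 42 genes, against 3626 of all 14712 genes tested, so that the share was no larger than that of all genes. DESeq2 gave 6 genes and limma voom gave 3, and the share of all genes that passed with these methods was not counted. Of the 42 log2 differences, 21 were above and 21 below 0, with a median of -0.00041, and they ranged from -0.67 (E2f2) to 0.81 (Rrm2). Over all 14712 genes, 0.673% passed as lower and 0.605% as higher. The libraries did not overlap for 8 genes that were lower and 6 that were higher, against 18.1% and 17.2% of all genes. Mcm2, with LPS- libraries at 67.6 to 94.6 CPM and LPS+ libraries at 50.9 to 56.2 CPM, was among the lower ones (log2 -0.62 ± 0.14 SE, adjusted p = 0.075). Without replicate 3 of LPS- tlr4f/f, the library low for most members, 15 of the 42 passed, 11 of them lower. The share of all genes that passed in that fit was not counted, so the 15 cannot be set against it. The 5 nucleotide enzymes all had positive values (median 0.65) and none passed.

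LPS+ tlr4f/f-lysM-cre against LPS- tlr4f/f-lysM-cre, the LPS comparison in tlr4f/f-lysM-cre cells as headed and the genotype comparison under LPS if exchanged, gave 10 genes that passed as higher and 2 as lower, with a median log2 difference of 0.62. Over all 14245 genes, 12.5% passed as higher and 14.2% as lower, and the median was 0.03. The libraries did not overlap for 23 genes that were higher and 2 that were lower, against 25.2% and 22.8% of all genes. The genes that rose were Mcm3, Gins3, Rfc4, Pold1, Rrm1, Rrm2, Fen1, Rpa1, Rpa2 and Uhrf1. Rrm2 rose by log2 1.82 ± 0.41 SE (adjusted p = 0.0211, edgeR), Gins3 by 1.34 ± 0.24 (adjusted p = 0.0104) and Rpa2 by 0.90 ± 0.15 (adjusted p = 0.00796). The genes that fell were Cdt1 and Rfc3 (log2 -0.83 ± 0.22 SE, adjusted p = 0.0364). The count rested on single libraries. It was 1 to 3 without a library of LPS+ tlr4f/f-lysM-cre and 20 without replicate 3 of LPS- tlr4f/f-lysM-cre, the library with the highest stromal and neutrophil marker sums. The shares of all genes that passed in those fits were not counted.

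**Figure D5:**
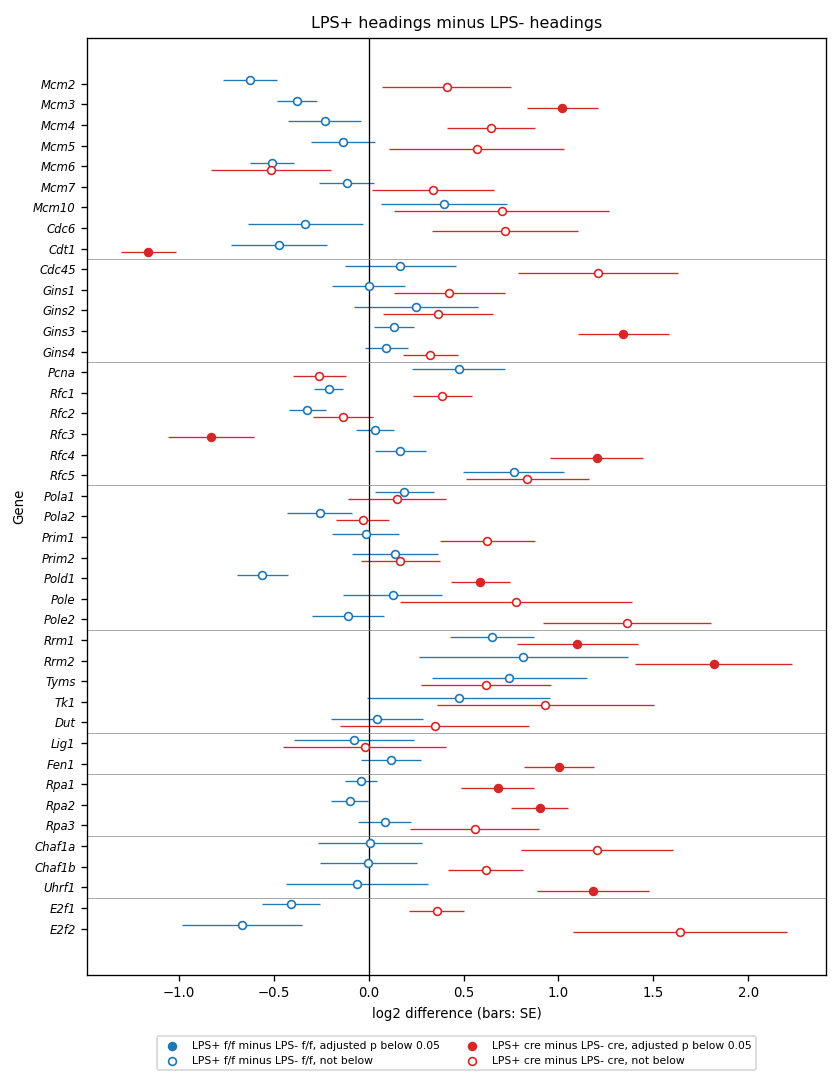
The plot gives the log2 difference of each of the 42 genes, LPS+ minus LPS- headings, under tlr4f/f (blue) and under tlr4f/f-lysM-cre (red), with SE bars. Filled points passed at an adjusted p below 0.05, which no blue point did, whereas 12 red points did, 10 above 0 and Cdt1 and Rfc3 below.

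The interaction asks whether the LPS+ minus LPS- difference was larger under tlr4f/f-lysM-cre than under tlr4f/f, and its value is the same in both readings. It passed for 5 of the 42 genes, all positive, against 4.13% of 15792 genes passing as positive and 2.86% as negative. Mcm3, a helicase subunit, had the smallest adjusted p (log2 1.40 ± 0.22 SE, adjusted p = 0.00783, edgeR) and was the only DEG, against 0.589% of all genes. Its libraries stood at 124, 135 and 119 CPM in LPS- tlr4f/f and 105, 94.3 and 88.3 CPM in LPS+ tlr4f/f, but at 19.9, 18.6 and 12.3 CPM in LPS- tlr4f/f-lysM-cre and 32.0, 36.2 and 33.6 CPM in LPS+ tlr4f/f-lysM-cre. The LPS+ libraries thus lay below the LPS- libraries under tlr4f/f, where the difference did not pass (log2 -0.38 ± 0.10 SE, adjusted p = 0.103), and above them under tlr4f/f-lysM-cre (log2 1.02 ± 0.19 SE, adjusted p = 0.0114). Gins3 (log2 1.21 ± 0.24 SE), Pold1, the catalytic subunit of polymerase delta (1.15 ± 0.20), Rfc4 (1.04 ± 0.26) and Rpa2 (1.00 ± 0.18) followed. Leaving out 1 library gave 3 to 10 members, and Gins3 (adjusted p up to 0.0581) and Rfc4 (up to 0.110) lost their calls there. Mcm3 and Pold1 were named for this test after their values were seen. E2f2 had the largest value of all members, 2.30 ± 0.63 SE, and did not pass (adjusted p = 0.0548).

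Other genes of the replication pathway, 57 genes listed by function outside the 42, mostly had lower values under tlr4f/f-lysM-cre too. Without LPS, 35 passed as lower and 4 as higher under tlr4f/f-lysM-cre, where 19.4% and 17.9% of all genes did. With LPS, 41 passed as lower and 8 as higher, where 31.0% and 30.5% of all genes did. Between LPS+ tlr4f/f and LPS- tlr4f/f none passed with edgeR, and 5 did with DESeq2. An unadjusted p below 0.05 was found there for 6 with edgeR, against 3626 of all 14712 genes. Between the tlr4f/f-lysM-cre headings 23 passed as higher and 7 as lower, where 12.5% and 14.2% of all genes did. The interaction passed for 10, of which 9 were positive, where 4.13% of all genes passed as positive and 2.86% as negative. Cdca7, a chromatin factor that works with HELLS in DNA methylation, had the largest fall, at a log2 difference of -5.498 without LPS (adjusted p = 0.00334, edgeR) and of -3.58 with LPS (adjusted p = 1.06e-08). Samhd1, a dNTP hydrolase which works against the nucleotide enzymes, rose the most, by 2.33 on the log2 scale without LPS (adjusted p = 0.00137) and 1.55 with LPS (adjusted p = 3.43e-10). It stood at 438, 380 and 327 CPM in LPS- tlr4f/f, 1948, 2361 and 1483 CPM in LPS- tlr4f/f-lysM-cre, 376, 407 and 372 CPM in LPS+ tlr4f/f and 1085, 1100 and 1184 CPM in LPS+ tlr4f/f-lysM-cre.

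By function, 9 of the 10 genes for origin firing and fork stability passed as lower with LPS and 8 of 10 without, as did 3 of 3 alternative clamp loader genes in both. Over all genes, 31.0% passed as lower and 30.5% as higher with LPS, and 19.4% passed as lower without LPS. Several lists below lay near these shares. Of the 10 other polymerase and processing genes, 7 passed as lower with LPS and 3 without. Of the 8 origin recognition and licensing control genes, 4 passed as lower and 2 as higher with LPS. The origin recognition subunits Orc3 and Orc4 did not pass as lower in either comparison, at log2 0.03 and 0.36 with LPS and -0.12 and 0.54 without. Of the histone supply and DNA methylation genes, 6 of 7 passed as lower in both comparisons, and the histone chaperone gene Asf1a was higher without LPS (log2 1.36, adjusted p = 0.00371) and with LPS (0.29, adjusted p = 0.023). Of the 7 other nucleotide enzymes, 3 passed as lower and 3 as higher with LPS. Of the 12 cyclin, kinase and E2F family genes, 9 passed as lower and 1, E2f4, as higher with LPS (log2 0.30, adjusted p = 0.000471).

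Between the tlr4f/f-lysM-cre headings, Dna2, a helicase and nuclease of Okazaki fragments, rose the most in this wider list (log2 2.83, adjusted p = 0.00368, edgeR) and Ccne1, cyclin E1, fell the most (log2 -1.64, adjusted p = 0.00275). Ccne1 stood at 12.9, 15.4 and 19.1 CPM in LPS- tlr4f/f-lysM-cre and 5.06, 5.02 and 4.999 CPM in LPS+ tlr4f/f-lysM-cre, and fell beside Cdt1 where Ccna2, the S-phase cyclin A2, rose (log2 2.35, adjusted p = 0.00328).

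Replication-dependent histone genes are copied into RNA in S phase, and their messages mostly lack a poly(A) tail. Of 69 such symbols in the table, 15 to 17 passed the filter on low counts, and the labels name both rRNA removal and poly(A) RNA-seq, so their levels are uncertain. With LPS, 11 of 16 had lower values under tlr4f/f-lysM-cre, and 6 passed as lower and 1 as higher, where 31.0% of all genes passed as lower. Without LPS, 5 of 15 had lower values and 10 higher ones, and 3 passed as lower and 1 as higher, where 19.4% of all genes passed as lower. The counts of histone genes that passed thus lay near the shares of all genes. With LPS, 5 of the 16 were DEGs in the lower direction, against 10.9% of all genes. Without LPS, 1 of the 15 was, against 7.81%. Hist1h2ap had the largest fall in both (log2 -1.82, adjusted p = 9.99e-06 with LPS, and -3.18, adjusted p = 0.00827 without, edgeR), and Hist3h2a was the gene that rose (0.61 and 1.25). Symbols of this family share near-identical sequence, and their counts cannot be assigned with certainty.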

How the data were processed

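Poly(A) RNA-seq of the BMDMs had been trimmed with Trimmomatic 0.36, checked with FastQC, aligned to mm10 with HISAT2 and counted with HTSeq, per the labels and the study's methods. The authors deposited raw read counts per transcript (115140 transcripts, 43453 gene names, 12 libraries). Transcripts of a gene share reads, so each gene was represented by its transcript with the highest total count. The labels also name rRNA removal. Strand use in counting was not given in the sources used here, so overlapping genes cannot be told apart.

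Counts were filtered with filterByExpr, scaled by TMM to CPM and tested with edgeR 4.0.16 quasi-likelihood F tests (robust, R 4.3.3), 6 libraries per comparison and 12 for the interaction. P-values were adjusted by Benjamini-Hochberg over all genes tested. The scripts were tested on simulated data. DEGs changed more than 2-fold at an adjusted p under 0.01. CPM per kilobase divides by transcript length. Libraries held 33577440 to 56445989 counts, and genes with few counts also varied between libraries beyond counting error. For 23 of the 42 genes several transcripts were listed.

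Replicate numbers were not taken to pair the libraries. Between the LPS- headings, deviations of same-numbered libraries correlated at 0.472, 0.340 and 0.014 for replicates 1, 2 and 3, so a shared batch there cannot be told. The alternatives were exchanged headings, DESeq2 1.42.0, voom of limma 3.58.1 with sample quality weights, RLE factors, other count filters, a fit over all 12 libraries, the replicate number as a block, summed transcripts and leaving out each library. Named genes were the largest change of each role with LPS across genotypes and across LPS under tlr4f/f-lysM-cre, 9 genes set by name, members opposite to the rest and the largest pathway changes. The 42 members, the lists and the tests were chosen with earlier results of these data known. Promoter sequences came from RefSeq (GRCm38.p6), exon overlaps from GENCODE M21. Protein sequences were not used here.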

Additional observations from a re-analysis of the deposited data

Results flagged for a closer look

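The difference between the LPS+ minus LPS- effect under tlr4f/f-lysM-cre and under tlr4f/f passed the interaction test (edgeR, adjusted over all genes) for 5 members, of which Gins3 and Rfc4 did not pass on leaving out some of the libraries (adjusted p up to 0.0581 and 0.110). The interaction was log2 1.40 ± 0.22 SE for Mcm3 (adjusted p = 0.00783), 1.21 ± 0.24 for Gins3 (adjusted p = 0.0166), 1.15 ± 0.20 for Pold1 (adjusted p = 0.0101), 1.04 ± 0.26 for Rfc4 (adjusted p = 0.0388) and 1.00 ± 0.18 for Rpa2 (adjusted p = 0.0110). Among the other pathway genes, Dna2 had the largest positive value that passed (2.18 ± 0.54, adjusted p = 0.0391) and Asf1a the largest negative value that passed (-1.08 ± 0.21, adjusted p = 0.0156). The exchange of headings leaves these values as they are. Rfc4 shares 13.4% of its annotated exon bases with Eif4a2 on either strand. Asf1a stood at 23.8, 20.6 and 21.3 CPM in LPS- tlr4f/f-lysM-cre, above the 6.63 to 12.7 CPM of the other 9 libraries, and Dna2 stood at 0.564, 1.40 and 0.715 CPM there, below the 5.81 to 38.5 CPM of the others. Stromal markers summed to 1011, 191 and 1550 CPM under the same heading, against 692, 63.3 and 10.96 CPM in LPS- tlr4f/f. Their part in these differences was not tested.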

How the results depend on the processing

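Exchanging the heading LPS- tlr4f/f-lysM-cre with LPS+ tlr4f/f swaps the comparisons. Members that passed were then 34 for LPS in tlr4f/f (21 DEGs), 41 for LPS in tlr4f/f-lysM-cre (33 DEGs), 0 for genotype without LPS (0 DEGs, 9 members at an unadjusted p below 0.05 with edgeR, 6 passing with DESeq2) and 12 for genotype with LPS (1 DEG). Pathway genes that passed were 39, 49, 0 and 30. Directions of named members turned accordingly. For LPS in tlr4f/f-lysM-cre the exchanged log2 values were Gins3 -1.13, Rfc4 -0.83, Rrm2 -2.32, Fen1 -1.25, Rpa1 -1.22, Rpa2 -0.46 and Uhrf1 -2.21. For genotype without LPS they were Gins1 0.00038, Gins3 0.13, Rfc4 0.17, Rrm2 0.81, Fen1 0.12, Chaf1a 0.0059 and Pola1 0.19. For genotype with LPS they were Cdc6 0.72, Gins1 0.42, Gins3 1.34, Rfc4 1.20, Pole2 1.36, Rrm2 1.82, Fen1 1.00, Rpa1 0.68, Rpa2 0.90, Uhrf1 1.18, Chaf1a 1.20, E2f2 1.64, Mcm2 0.41, Pola1 0.15, Tk1 0.93 and E2f1 0.36.

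For LPS in tlr4f/f, members that passed were 6 with DESeq2, 3 with voom and 1 with all 12 libraries in 1 fit, and pathway genes were 5, 5 and 2, and 1 with no filter beyond 1 count. For LPS in tlr4f/f-lysM-cre, DEGs among members were 6 with DESeq2, 4 with voom, 3 with no filter, 4 with at least 10 counts in every library, 4 with all 12 libraries in 1 fit and 0 with the replicate block. For genotype without LPS they were 32 with DESeq2 and 34 with all 12 libraries. For the interaction, members that passed were 11 with DESeq2, 8 with voom and 8 with at least 10 counts, DEGs were 4, 3 and 2, and DEGs were 0 with RLE factors, 2 with no filter and 0 with summed transcripts. Pathway genes of the interaction were 20 with DESeq2. The fall of Rrm2 without LPS did not pass with no filter (adjusted p = 0.0584). The cause of these shifts was not tested. Outside the exchange, the shares of all genes that passed were not counted for the alternatives or on leaving out a library.

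Leaving out a library gave 0 to 15 passing members and 0 to 6 pathway genes for LPS in tlr4f/f, and 1 to 20 members, 0 to 4 DEGs and 11 to 35 pathway genes for LPS in tlr4f/f-lysM-cre. It gave 26 to 37 members, 14 to 21 DEGs (14 without replicate 2 of LPS- tlr4f/f-lysM-cre) and 29 to 38 pathway genes for genotype without LPS, and 41 members, 32 to 33 DEGs and 48 to 50 pathway genes for genotype with LPS. For the interaction it gave 3 to 10 members, 0 to 3 DEGs and 4 to 20 pathway genes. Mcm3, Pold1 and Rpa2 passed under every alternative run, Gins3 in all but 4 (without any 1 of the LPS+ tlr4f/f libraries or replicate 3 of LPS+ tlr4f/f-lysM-cre) and Rfc4 in 9 of the 21 fits, with a largest adjusted p of 0.173.

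Same-numbered libraries correlated at -0.037 to 0.472 in their deviations from group means, with no comparison over 0.1 in every pair, so the numbers are not taken to pair the libraries. With the replicate block, members that passed were 0, 8, 37, 41 and 6 for LPS in tlr4f/f, LPS in tlr4f/f-lysM-cre, genotype without LPS, genotype with LPS and the interaction. Outside the exchange, none of the 92 called member values changed sign. Of 60 values of named members without a call, 14 did, all at most 0.44 in size.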
